A study of Mus musculus with 10 samples.

Results

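Rspo3, Wnt2b, Wnt3a, Wnt5a, Wnt7a, Wnt7b and Wnt8b are the R-spondin and the WNT ligands linked to the cortical hem and the adjoining cortical wall. They were taken as every probe that the platform annotation pairs with 1 of these symbols alone, which gave 7 probes for 7 genes, 1 probe a gene, of 21766 probes on the array, which name 15063 genes. The samples were rostral and caudal ends of mouse neocortex at E11.5, each pool holding tissue of 3 embryos. MF1, an outbred stock, gave 3 pools on 6 arrays, and C57, an inbred strain, gave 2 pools on 4 arrays; no mutation or treatment is named for either. Both ends of a pool shared an array, 1 labelled with Cy3 and 1 with Cy5, and a second array exchanged the dyes. Arrays that carried the caudal end in Cy5 are called caudal-Cy5 arrays, and the others rostral-Cy5 arrays. The RNA was amplified before labelling, and each value came from pooled whole tissue, so that more expressing cells and more RNA per cell cannot be told apart.

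The cortical hem is a signalling strip at the medial edge of the cortical wall, next to the future choroid plexus. It secretes WNT and BMP proteins, and its WNT signal is needed for growth of the hippocampus in the mouse. WNT ligands bind frizzled receptors with LRP co-receptors and stabilise beta-catenin, which then acts with TCF and LEF factors on target genes. R-spondins carry no WNT signal of their own: they bind LGR receptors and hold back the ligases ZNRF3 and RNF43, which keeps frizzled receptors on the cell surface. In the mouse, Wnt2b, Wnt3a, Wnt5a and Wnt8b are known as hem ligands, while Wnt7a and Wnt7b are known more broadly in the cortical wall.

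The RefSeq promoter table of GRCm38.p6 used here held 4 of the 7 genes, Wnt2b, Wnt3a, Wnt7a and Wnt8b, and gave no window for Rspo3, Wnt5a and Wnt7b. The windows of Wnt3a, Wnt7a and Wnt8b are printed because these are the ligands with a fitted ratio. Each window runs 5′ to 3′ from 250 bases before to 50 after the annotated start. Capitals mark matches, on either strand, to the TCF/LEF core CTTTG, the GLI core CCACCC (GLI factors carry hedgehog signals, and Gli3 is needed for the hem in mice) or the homeodomain core TAATTA.
Wnt3a promoter, chr11:59290702-59291001, - strand: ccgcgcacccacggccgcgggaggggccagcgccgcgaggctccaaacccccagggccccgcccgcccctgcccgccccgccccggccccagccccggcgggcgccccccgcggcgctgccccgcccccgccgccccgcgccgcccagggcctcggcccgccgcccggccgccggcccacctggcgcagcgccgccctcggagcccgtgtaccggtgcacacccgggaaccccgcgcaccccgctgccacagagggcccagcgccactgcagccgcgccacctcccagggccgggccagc
Wnt7a promoter, chr6:91411304-91411603, - strand: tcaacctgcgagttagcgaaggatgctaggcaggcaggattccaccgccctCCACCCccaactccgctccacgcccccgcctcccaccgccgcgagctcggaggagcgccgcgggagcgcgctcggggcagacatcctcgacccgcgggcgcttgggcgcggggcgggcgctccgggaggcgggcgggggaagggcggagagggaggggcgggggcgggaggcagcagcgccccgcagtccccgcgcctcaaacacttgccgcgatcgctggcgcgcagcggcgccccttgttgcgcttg
Wnt8b promoter, chr19:44493222-44493521, + strand: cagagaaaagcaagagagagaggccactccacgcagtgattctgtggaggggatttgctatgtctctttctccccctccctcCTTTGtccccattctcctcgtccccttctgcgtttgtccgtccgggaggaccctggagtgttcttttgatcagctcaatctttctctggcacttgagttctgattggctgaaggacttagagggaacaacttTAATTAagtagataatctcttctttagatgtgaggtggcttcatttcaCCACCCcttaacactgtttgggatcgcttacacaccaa
The Wnt3a window had a GC content of 86.3% and the Wnt7a window 76.0%, against 48.3% for Wnt8b and a median of 52.7% over all 32851 windows in the table. Wnt8b held 1 match to each of the 3 motifs, Wnt7a held a GLI core match alone, and Wnt3a held none of the 3. CTTTG lay in 53.9% of all windows, CCACCC in 31.5% and TAATTA in 5.29%. The Wnt2b window, not printed, had a GC content of 79.7% and 1 GLI core match on its minus strand. A match describes the letters of the window and is not evidence of a bound site.

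Values are given as the log2 of caudal over rostral signal, positive where the caudal end was higher; they hold no level, and the genes cannot be ranked by abundance. Their direction assumes that Cy5 is the numerator, which the files do not state. The dye labels name the tissue in each channel and not the numerator. This direction is likely from Nr2f1 alone, a nuclear receptor known for a caudal-high gradient in the cortex, named after its values were seen. Its probes read this way had 1.85 ± 0.22 (limma SE, n = 5 pools) and 0.57. Of the cortical progenitor markers, Emx2 had 0.10 ± 0.15 and the Pax6 probes 0.10 ± 0.17 and 0.02 ± 0.14 (limma SE). These lay too near 0 to set a direction. Read the other way, every sign would turn. Arrays were not centred, and pool medians over the 11855 tested probes lay between -0.18 and 0.36. The arrays of a pool differed by dye order: once both arrays of a pool were turned to caudal over rostral, their ratios across probes had Pearson correlations from -0.25 to 0.03, and 44.4% to 59.6% of probes had 1 sign in both dye orders. Values of each dye order are therefore given for the 7 members. Over all tested probes 69.4% of the fitted ratios were positive, against which the counts of positive ratios stand.

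Rspo3 had a positive caudal over rostral ratio on all 10 arrays. In the MF1 pools its caudal-Cy5 arrays read 1.45, 1.54 and 1.78, and its rostral-Cy5 arrays read 0.24, 0.96 and 1.11. In the C57 pools the readings were 0.99 and 1.11 in the caudal-Cy5 order, and 0.24 and 0.85 in the rostral-Cy5 order. The caudal-Cy5 arrays were higher in every pool, by 0.26 to 1.21, and neither dye order had a ratio below 0. The pool means were 0.84, 1.25 and 1.45 in MF1 and 0.62 and 0.98 in C57, and the strains overlapped.

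The fitted Rspo3 ratio was 0.99 ± 0.16 (limma SE, n = 5 pools), a 1.98-fold difference, with a 95% interval from 0.58 to 1.39. Its limma p was 0.00111, the 12th smallest of 11855, and its adjusted p was 0.983. It therefore did not pass the threshold of 0.05 after Benjamini-Hochberg adjustment, nor did any other probe: 0% of probes were called, while 1.98% had a positive ratio with an unadjusted p under 0.05. Sign changes of 5 pools allow no exact two-sided p smaller than 0.0625. The pool mean of Rspo3 was positive in all 5 pools, which held for 4.16% of the 8924 probes measured in 5 (4.14% of all tested probes were positive in every pool measured), and its sign was positive on all 10 arrays, which held for 0.403% of them, while 0.213% were negative on all 10. With each array centred on its median the 10 readings lay between 0.44 and 1.55, and 1.03% of probes were then positive on all 10. When the 10 centred arrays were fitted singly with a dye term and the pool as a random block, Rspo3 passed in limma at 0.94 ± 0.12, adjusted p = 0.0322, where 0.0675% of probes were called, 0.0169% with a positive ratio. Without centring its adjusted p in that limma fit was 0.0728, and 0.00844% of probes were called. With the centred arrays averaged per pool, its limma adjusted p was 0.347. The fit of single arrays takes both arrays of a pool as values, with 1 correlation of 0.26 shared by all probes. Its p-values therefore do not measure the spread between pools alone.

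**Figure D1:**
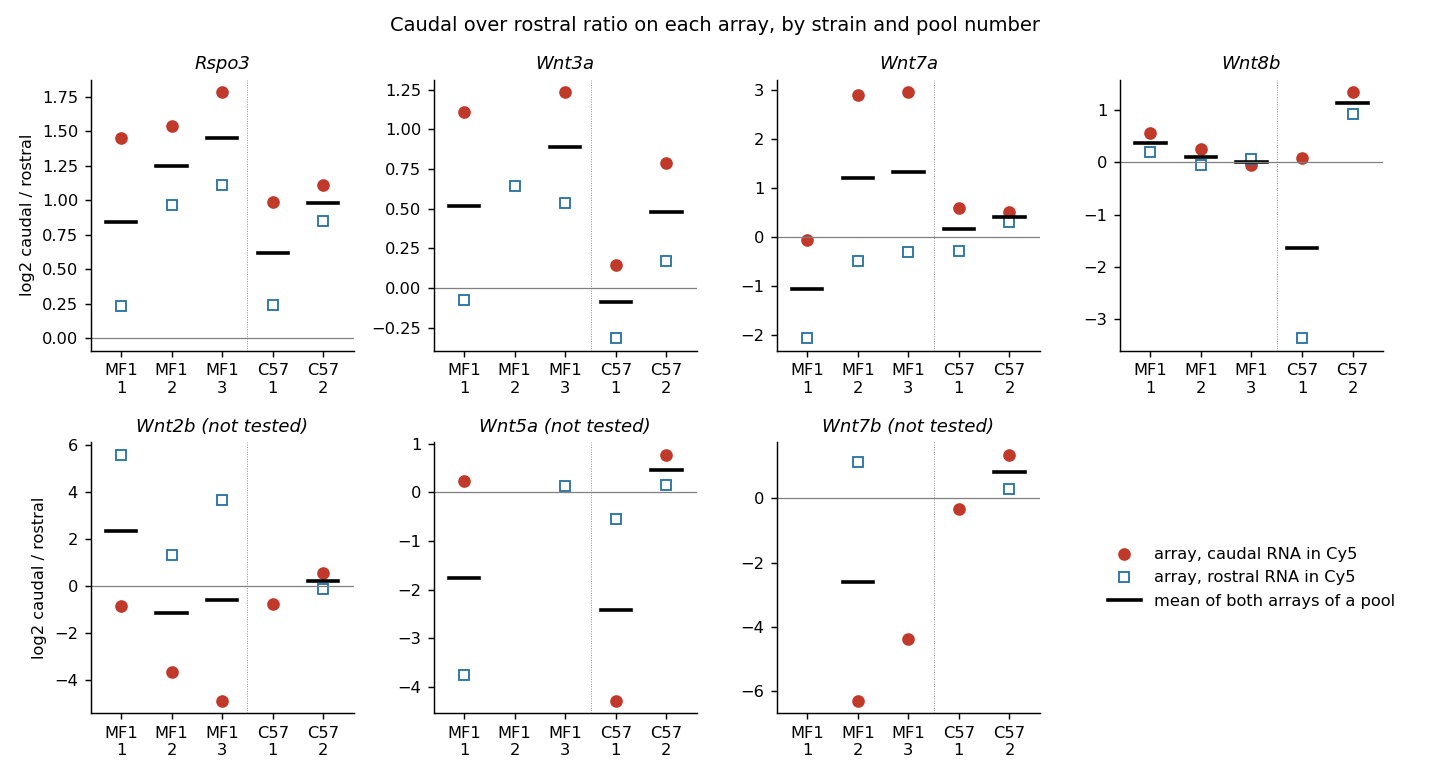
Log2 caudal over rostral ratio (vertical axis, scaled separately in each panel) of the 7 genes on each array, by strain and pool number: filled circles are caudal-Cy5 arrays, open squares rostral-Cy5 arrays, and bars the mean of a pool measured in both dye orders. All 10 Rspo3 points lie above 0, between 0.24 and 1.78, while Wnt2b splits by dye order in MF1, from -4.89 to 5.58.

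Among the hem ligands, Wnt3a, which activates beta-catenin signalling and is needed for the mouse hippocampus, had the second-largest ratio of the tested members. Its MF1 arrays read 1.11 and 1.23 in the caudal-Cy5 order for pools 1 and 3, and -0.08, 0.65 and 0.54 in the rostral-Cy5 order for pools 1, 2 and 3. In C57 they read 0.15 and 0.79 in the caudal-Cy5 order, and -0.32 and 0.17 in the rostral-Cy5 order. Of 9 arrays, 7 were positive, and the 2 negative readings came from rostral-Cy5 arrays. The pool means were 0.51 and 0.89 in MF1, against -0.09 and 0.48 in C57, so that the strains did not overlap. This was so for 17.2% of tested probes, and with MF1 higher for 2.06%. Those shares include probes with 3 MF1 pools, and with the 2 of Wnt3a a lack of overlap comes more easily. Over both strains the ratio was 0.45 ± 0.19 (limma SE, n = 4 pools, MF1 pool 2 being incomplete), with an unadjusted p of 0.0716, an adjusted p of 0.983 and a 95% interval from -0.06 to 0.95.

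Wnt8b, a hem ligand that marks the medial cortical wall in the mouse, depended on the C57 pools. Its MF1 arrays read 0.56, 0.25 and -0.05 in the caudal-Cy5 order, and 0.20, -0.05 and 0.06 in the rostral-Cy5 order. The C57 arrays read 0.10 and 1.35 in the caudal-Cy5 order, and -3.37 and 0.94 in the rostral-Cy5 order. The C57 pools thus stood at -1.64 and 1.14, on either side of the MF1 pools at 0.38, 0.10 and 0.003. The fitted ratio was -0.04 ± 0.40 (limma SE, n = 5 pools, adjusted p = 0.99), 0.65 ± 0.18 without C57 pool 1 (adjusted p = 0.88) and -0.74 ± 0.18 without C57 pool 2 (adjusted p = 1).

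Wnt2b and Wnt5a were measured in too few pools to be tested. Wnt2b, a ligand that signals through beta-catenin, had no value for C57 pool 1 in the rostral-Cy5 order, and its MF1 readings were -0.87, -3.64 and -4.89 in the caudal-Cy5 order, and 5.58, 1.31 and 3.67 in the rostral-Cy5 order. Its readings in C57 were -0.77 and 0.54 in the caudal-Cy5 order, and -0.14 in pool 2 in the rostral-Cy5 order. No Wnt2b pool had 1 sign in both dye orders, and the MF1 pool means of 2.36, -1.17 and -0.61 went both ways.

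Wnt5a, a ligand known mainly for signalling that does not pass through beta-catenin, had both dye orders in 3 pools. Their means were -1.76 in MF1 pool 1, and -2.42 and 0.46 in C57. In MF1 pool 1 the readings were 0.23 in the caudal-Cy5 order and -3.75 in the rostral-Cy5 order, and MF1 pool 3 gave a single reading of 0.13. The 2 arrays of C57 pool 1 read -4.29 and -0.56, and those of C57 pool 2 read 0.77 and 0.15, so that the C57 pools disagreed in sign.

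Of the ligands known across the cortical wall, Wnt7a was measured on all 10 arrays and split by dye order. The MF1 readings were -0.06, 2.91 and 2.96 in the caudal-Cy5 order, and -2.07, -0.49 and -0.31 in the rostral-Cy5 order. In C57 the readings were 0.60 and 0.52 in the caudal-Cy5 order, and -0.28 and 0.31 in the rostral-Cy5 order. The 2 dye orders gave opposite signs in 3 of 5 pools. The pool means were -1.06, 1.21 and 1.32 in MF1 and 0.16 and 0.41 in C57, with the C57 values inside the MF1 range. The ratio was 0.39 ± 0.39 (limma SE, n = 5 pools, adjusted p = 0.983), and it lay between 0.18, without MF1 pool 3, and 0.78, without MF1 pool 1. It was 1.25 from the caudal-Cy5 arrays alone and -0.47 from the rostral-Cy5 arrays alone.

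Wnt7b, a close relative of Wnt7a, gave 6 readings and was not tested. MF1 pool 2 read -6.33 in the caudal-Cy5 order and 1.14 in the rostral-Cy5 order, MF1 pool 3 gave -4.39 in the caudal-Cy5 order, and MF1 pool 1 gave none. In C57 the readings were -0.33 and 1.37 in the caudal-Cy5 order, and 0.28 in pool 2 in the rostral-Cy5 order. Only C57 pool 2 agreed in sign between its 2 arrays, at a mean of 0.82. Whether the probes of these related ligands share sequence was not tested.

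**Figure D2:**
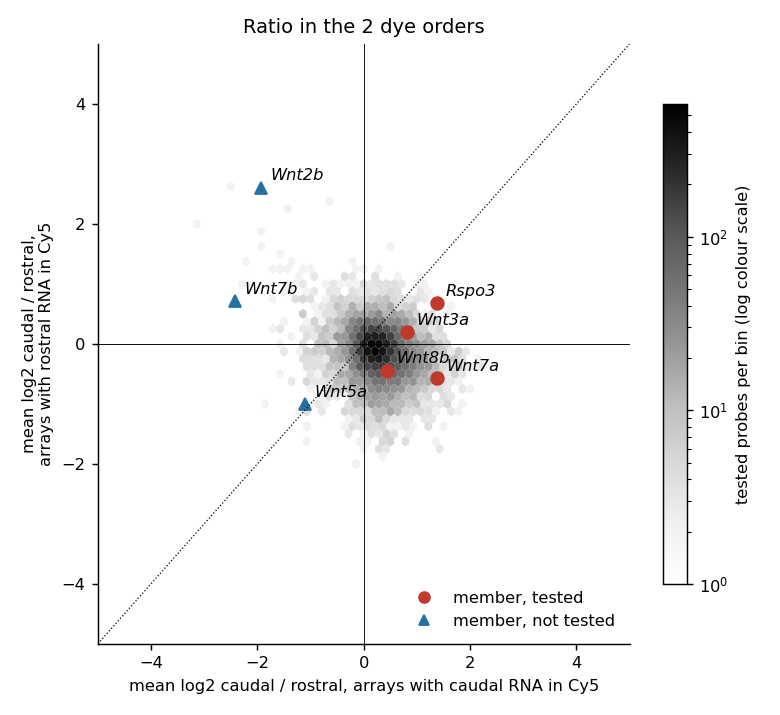
Mean log2 caudal over rostral ratio of the caudal-Cy5 arrays (horizontal axis) against that of the rostral-Cy5 arrays (vertical axis); grey bins count tested probes, circles are tested members, triangles members not tested, and the dotted line marks equal values. Rspo3, at 1.37 and 0.68, and Wnt3a, at 0.82 and 0.19, are positive in both orders, and Wnt2b, at -1.93 and 2.61, lies far off the line. Wnt5a is negative in both, at -1.10 and -1.01, with lowest readings of -4.29 and -3.75, though 4 of its 7 readings were positive.

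By strain, Rspo3 stood at 1.18 ± 0.21 in MF1 (limma SE, n = 3 pools, unadjusted p = 0.00149, adjusted p = 0.712) and at 0.80 ± 0.25 in C57 (n = 2 pools, unadjusted p = 0.0212, adjusted p = 1). No probe was called in either strain (0% of 11855), and a positive ratio with an unadjusted p under 0.05 was found for 1.55% of probes in MF1 and 1.44% in C57, and a negative one for 2.4% in MF1 and 0.363% in C57. All 3 MF1 pools of Rspo3 were positive, as for 9.5% of probes with every MF1 pool measured so, and both C57 pools were, as for 34.7% of probes. Wnt3a had 0.70 ± 0.27 in MF1 and 0.20 ± 0.27 in C57, from 2 pools each. Wnt7a had 0.49 ± 0.49 in MF1 and 0.29 ± 0.60 in C57, and Wnt8b had 0.16 ± 0.51 in MF1 and -0.25 ± 0.62 in C57. Each SE rests on a spread per probe that the fit shares between the strains. It therefore does not measure the spread within 1 strain. For Wnt8b the MF1 pool means were 0.38, 0.10 and 0.003, and the C57 pool means were -1.64 and 1.14.

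The test of MF1 minus C57 asked whether the regional ratio depends on the strain. The difference was 0.38 ± 0.33 for Rspo3 with a 95% interval from -0.43 to 1.19, 0.50 ± 0.39 for Wnt3a, 0.20 ± 0.78 for Wnt7a and 0.41 ± 0.80 for Wnt8b (limma SE). None passed, each with an adjusted p of 0.999, and 0% of probes were called. An unadjusted p under 0.05 was met by 0.548% of probes with MF1 higher and 1.33% with MF1 lower, and by none of the 4 members. The intervals reach more than 1 log2 unit above 0 for all 4 genes, so a strain difference of that size was not excluded by these pools. The arrays of the strains differed in spread. Standard deviations across probes ran from 1.13 to 1.77 on MF1 arrays and from 0.70 to 0.91 on C57 arrays. MF1 arrays also had fewer measured probes, 13723 to 18288 against 20191 to 20870. Once arrays were centred and scaled to a common spread, Rspo3 stood at 0.995 for MF1 and 1.05 for C57. Its strain difference was then -0.06, against 0.55 for Wnt3a, -0.007 for Wnt7a and 0.46 for Wnt8b. The part of array spread in the strain ratios was not tested.

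**Figure D3:**
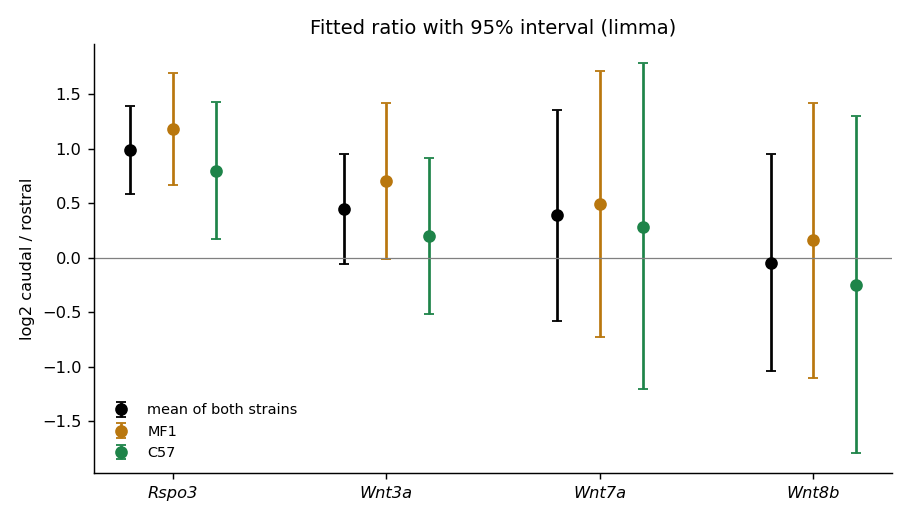
Fitted log2 caudal over rostral ratio (points) with its 95% interval from limma (bars) for the 4 tested genes, over both strains, in MF1 and in C57. Only the 3 Rspo3 intervals lie wholly above 0. The intervals are not adjusted for the 11855 probes tested, and they use a spread shared by both strains.

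Of the other WNT ligands and R-spondins, 15 of 16 genes listed were on the array and 5 were tested. Ratios were positive for 2 and negative for 3 of them, with a median of -0.09, against 0.09 over all tested probes and 0.42 over the 4 tested members. Of the members 3 of 4 were positive, a share near the 69.4% of all tested probes. The median of the other ligands was 0.24 without C57 pool 1 and -0.34 without C57 pool 2. Rspo1, the other R-spondin tested, had 0.21 ± 0.19, and Wnt5b, the member of smallest p in that list, -0.48 ± 0.23 (limma SE, adjusted p = 0.983). No gene of the pathway passed the adjusted threshold in the limma fit of uncentred pool values. The counts below use an unadjusted p under 0.05 in that fit, met by 1.98% of all probes positively and by 1.11% negatively.

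Among receptors of WNT and R-spondin, 1 of 12 probes met it, positively, and the median was 0.12. That probe was Fzd7, a frizzled receptor, at 1.02 ± 0.16 (limma, adjusted p = 0.983), with pool means of 1.49, 0.89 and 1.03 in MF1 and 0.71 and 1.08 in C57. Rnf43, a ligase that R-spondins hold back, averaged 1.18 ± 0.86 through MF1 pool 2 alone, at 4.81, with the other pools between -0.37 and 0.39. Of 8 probes for WNT antagonists, mostly secreted, 1 met it positively and 2 negatively, with a median of -0.12 that was 0.08 without C57 pool 1. The negative probes both belonged to Sfrp1, a secreted frizzled-related WNT inhibitor, at -1.08 ± 0.15 and -1.17 ± 0.19, and the positive one to Apcdd1, a membrane WNT inhibitor, at 0.61 ± 0.17. In the secretion and beta-catenin list 0 of 21 probes met it in either direction, with a median of 0.12, and Porcn, the enzyme that lipidates WNT ligands for secretion, had the smallest p at 0.29 ± 0.14.

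Genes known to respond to WNT signalling had a median of 0.17 over 10 probes, of which 8 were positive, against 69.4% of all tested probes. The median was -0.15 on the rostral-Cy5 arrays alone and lay between 0.02 and 0.27 with 1 pool left out, lowest without MF1 pool 2. The gene that met the unadjusted threshold, negatively, was Ccnd1, a D-type cyclin, at -0.68 ± 0.23, with pool means from -1.55 to -0.29. Lef1, a partner of beta-catenin, had 0.18 ± 0.14 and Sp5, a transcription factor induced by WNT, 0.18 ± 0.15. Both were positive in 5 of 5 pools, as were 4.16% of the probes measured in 5. Sp5 averaged 0.49 on caudal-Cy5 arrays and -0.15 on rostral-Cy5 arrays. Axin2, a feedback inhibitor of the pathway, had 0.16 ± 0.37, positive in 2 of 5 pools, with 0.65 on caudal-Cy5 and -0.33 on rostral-Cy5 arrays.

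Markers of the tissue at the medial edge were read beside Rspo3. The 6 tested hem markers other than WNT genes all had positive ratios, from 0.03 to 0.70, with a median of 0.39 (0.34 after centring), where 69.4% of all tested probes were positive. The median was 0.485 in MF1 and 0.125 in C57, 0.63 without C57 pool 1 and 0.11 without C57 pool 2. Id3, a target of BMP signals, had 0.70 ± 0.22 and alone met the unadjusted threshold; Lmx1a, a homeobox factor that defines the hem, had 0.50 ± 0.39, with pool means of 0.45, 0.18 and 2.34 in MF1 and -0.69 and 0.71 in C57. Of 4 choroid plexus probes, 2 were positive and met it: Ttr, the thyroid hormone carrier, at 1.68 ± 0.19, and Folr1, a folate receptor, at 0.52 ± 0.19 from 4 pools. Otx2 stood at -0.003 ± 0.15 and Kcne2, a potassium channel subunit, at -0.34 ± 0.29. Of 7 probes for Cajal-Retzius neurons, which arise partly from the hem, 6 were positive, where 69.4% of all tested probes were. The list median of 0.13 was 0.66 on caudal-Cy5 and -0.19 on rostral-Cy5 arrays, 0.36 without C57 pool 1 and 0.04 without C57 pool 2. Nhlh2, a bHLH factor, had the smallest p at 0.62 ± 0.17, Trp73 had 0.94 ± 0.33, and Reln had -0.65 ± 0.25 from 4 pools, with 0.09 on caudal-Cy5 and -1.39 on rostral-Cy5 arrays. These ratios do not show how much medial tissue each sample held, and the part of medial tissue in the Rspo3 ratio was not tested.

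The remaining marker lists had medians of 0.08 for cortical progenitors, 0.09 for the diencephalon, -0.24 for the ventral telencephalon, -0.20 for meninges and mesenchyme, 0.41 for blood and -0.57 for surface ectoderm. Without C57 pool 1 the median was -0.02 for the ventral telencephalon and 0.015 for meninges and mesenchyme, and without C57 pool 2 it was -0.55 and -0.505. Medians in MF1 were -0.07 for cortical progenitors and 0.11 for the diencephalon, against 0.21 and -0.06 in C57. Those of the ventral telencephalon, meninges and mesenchyme, and surface ectoderm were -0.56, -0.43 and -0.99 in MF1. In C57 they were 0.06, 0.03 and -0.31. Of 5 ventral telencephalon and 4 surface ectoderm probes, 2 each met the unadjusted threshold negatively, against 1.11% of all tested probes. All 6 blood probes were positive, where 69.4% of all tested probes were, with a list median of 0.08 in MF1 and 0.62 in C57. The part of blood in the members' ratios was not tested.

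**Figure D4:**
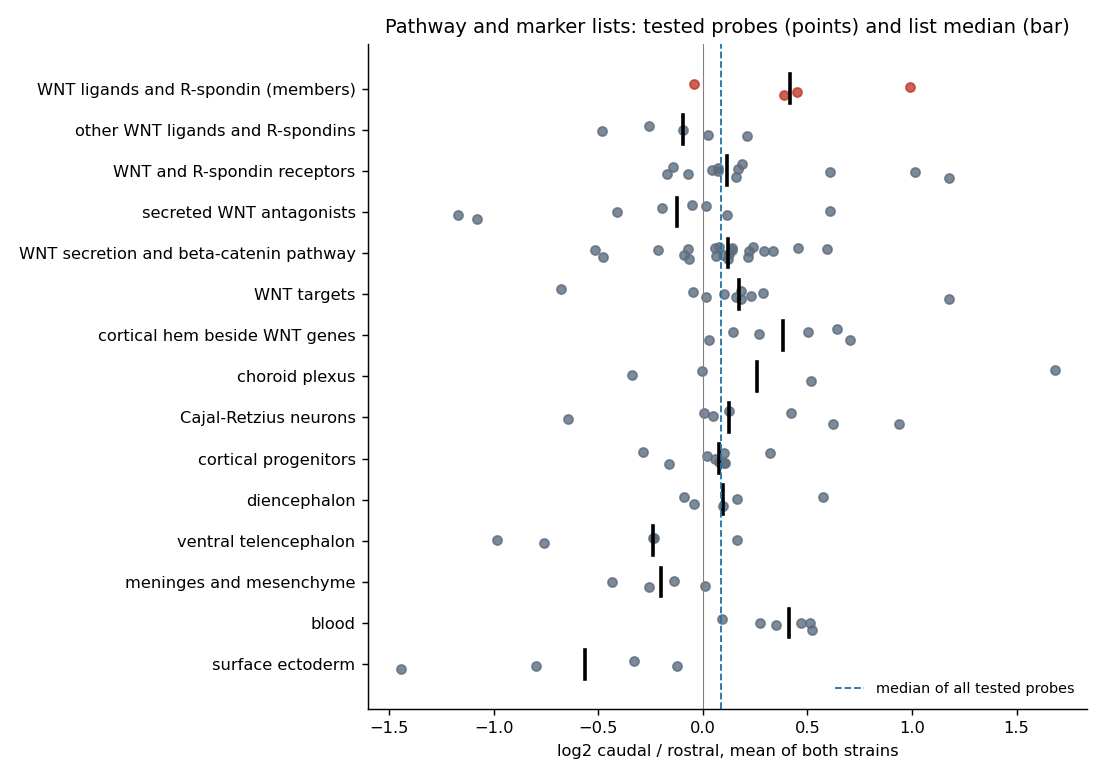
Log2 caudal over rostral ratio, mean of both strains (horizontal axis), of every tested probe in the members (red) and in 14 pathway and marker lists (grey); black bars are list medians, and the dashed line is the median of all tested probes, 0.09. The members' median of 0.42 rests on 4 genes, with Rspo3 highest at 0.99.

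The genes nearest to Rspo3 over the 5 pools, by root mean square difference of the pool means among 8924 probes measured in all 5, were Epha3, an Eph receptor tyrosine kinase, the uncharacterised C630043F03Rik, and Id1, an inhibitor of bHLH factors induced by BMP. The differences were 0.22, 0.24 and 0.32 log2 units. Epha3 had pool means of 0.72, 0.98 and 1.76 in MF1 and 0.53 and 1.19 in C57, and a ratio of 1.01 ± 0.22. C630043F03Rik had 0.83 ± 0.15 and Id1 0.81 ± 0.23, and all 3 genes were positive on 10 of 10 arrays. Their likeness to Rspo3 in these pools comes from how they were chosen and is no further support. For Wnt8b, the tested member with a negative ratio, the nearest genes were Cfap97, Mrpl55 and Gstm3, at 0.27, 0.34 and 0.34 log2 units. All 3 were negative in C57 pool 1, from -1.69 to -1.09, and positive in C57 pool 2, from 0.69 to 1.25. Wnt8b had the same signs, which their choice by nearness to it brings about.

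**Figure D5:**
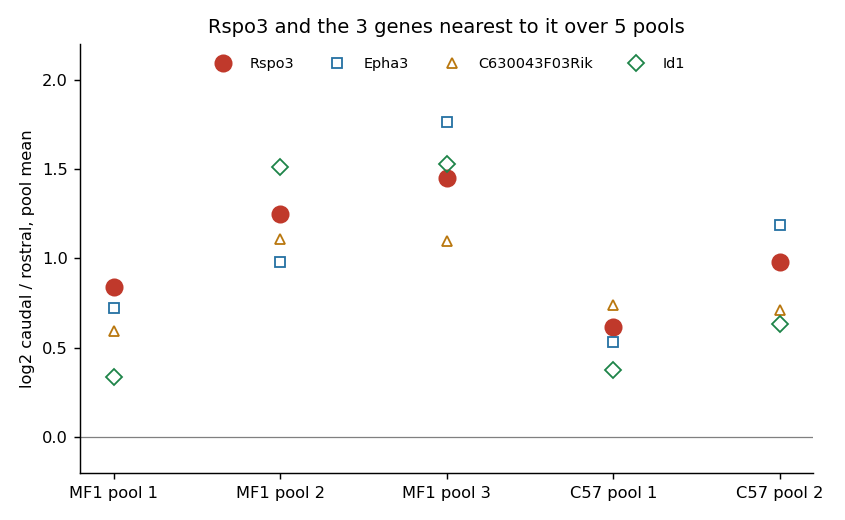
Pool means of the log2 caudal over rostral ratio (vertical axis) of Rspo3 (filled circles) and of its 3 nearest genes (open symbols) in the 3 MF1 and 2 C57 pools. Every point lies above 0, the lowest being Id1 at 0.34 in MF1 pool 1 and the highest Epha3 at 1.76 in MF1 pool 3. The 3 genes were chosen for their nearness to Rspo3 in these same pool means.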

How the data were processed

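RNA of pooled rostral and caudal tissue was extracted with Trizol, amplified and labelled with Cy3 or Cy5, per the labels. The authors deposited a ratio per probe and array on a log2 scale, as judged from its values. How they corrected background or normalized is not given here: no label or header used states it. Control spots (232) were left out. The 436 values at a ceiling of 16.61 were taken as missing. Ratios were turned so that caudal is on top, and each pool's 2 arrays were averaged. Testing required both dye orders in 2 or more pools per strain; 4 of the 7 members met this. Pool values were fitted across all 11855 probes with limma 3.58.1 in R 4.3.3. The fit had a coefficient per strain, a spread shared by both strains, 2.69 prior degrees of freedom and 3 residual ones with 5 pools. The fit was run on simulated pool values with an equal spread for all probes and no dye or strain effect. These data differ from that setting, so the check does not cover them. Tests were two-sided with Benjamini-Hochberg adjustment at 0.05. P-values of the fit of pool values measure the spread between pools, and the number of pools (3 MF1, 2 C57) limits the precision. Pool numbers were not used to pair MF1 with C57. The differences between pools 1 and 2 correlated at 0.07 across probes, which cannot show a shift common to all probes. The medians of tested probes were -0.10 in C57 pool 1 and -0.18 in MF1 pool 1. They were 0.36 in C57 pool 2 and 0.13 in MF1 pool 2.

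Members and lists were chosen with earlier results of these data known. Every member was named, with the gene of smallest p of each pathway list and, for the member of smallest p on each side, the 3 genes nearest over 5 pools; other genes were named after their values were seen. Symbols came from the platform annotation, 15952 of 16632 matched by identifier to RefSeq. No source used here gives the build of the probes, and a further C57 pool named in the design was not analysed here. Plots used matplotlib 3.10.9 (Python 3.11.15). Alternatives are given in the closing section.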

Additional observations from a re-analysis of the deposited data

How the results depend on the processing

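Over 17 alternatives, the Rspo3 ratio stayed positive over both strains, from 0.66 to 1.32 with adjusted p from 0.0322 to 1, and in each strain. No member was called for either strain or for the strain difference under any alternative, and 1 member, Rspo3, was called over both strains with 10 centred arrays, a dye term and the pool as a random block. With pool number as a replicate block over pools 1 and 2, Rspo3 had 0.92, Wnt7a's strain difference turned to -0.21, and no member was called. Rostral-Cy5 arrays alone turned Wnt7a to -0.47 over both strains, -0.955 in MF1 and -0.97 for the strain difference, and Wnt3a to -0.074 in C57. Caudal-Cy5 arrays alone turned Wnt8b to 0.49 over both strains, 0.72 in C57 and -0.47 for the strain difference. Scaling the arrays turned the strain difference to -0.058 for Rspo3 and -0.007 for Wnt7a. Leaving out each pool gave ranges of 0.90 to 1.08 for Rspo3, 0.31 to 0.59 for Wnt3a, 0.18 to 0.78 for Wnt7a and -0.74 to 0.65 for Wnt8b over both strains. In MF1 they were 0.51 to 0.89 for Wnt3a, 0.07 to 1.27 for Wnt7a and 0.05 to 0.24 for Wnt8b. In C57 the ranges were -0.086 to 0.477 for Wnt3a and -1.64 to 1.14 for Wnt8b, and for the strain difference 0.20 to 0.565 for Rspo3, 0.22 to 0.785 for Wnt3a, -0.21 to 0.98 for Wnt7a and -0.985 to 1.80 for Wnt8b. With incomplete pools kept, the means were -0.05 for Wnt2b, -0.90 for Wnt5a and -1.62 for Wnt7b (limma adjusted p = 0.996, 0.986 and 0.771), against 0.20, -1.37 and -0.89 from complete pools. List medians that turned sign with 1 pool left out were those of the other WNT ligands (-0.34 to 0.24), antagonists (-0.32 to 0.08), meninges (-0.505 to 0.015), diencephalon (-0.11 to 0.26) and cortical progenitors (-0.02 to 0.13). The causes were not tested.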

Other observations

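Rspo3 was 1 of 21 probes that were positive on all 10 arrays both uncentred and after centring, of 8924 measured on all 10. Of these, 4 had a larger ratio: Nr2f1 at 1.85 ± 0.22 (0.57 for its other probe), Ttr at 1.68 ± 0.19, Fzd7 at 1.02 ± 0.16 and Epha3 at 1.01 ± 0.22 (limma SE, n = 5 pools). Among the others, Neurod1, a proneural transcription factor, had 0.74 ± 0.14, Ccnd2, a D-type cyclin, 0.68 ± 0.19 (0.86 for its other probe), and Id1 and Id3, inhibitors of bHLH factors, 0.81 ± 0.23 and 0.70 ± 0.22. No probe was called in the limma fit of uncentred pool values (smallest adjusted p 0.567), and these genes were picked after their values were seen.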
